A study of Mus musculus with 3 samples.

Results

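MicroRNAs are made from hairpins in longer transcripts. In the nucleus the Microprocessor, formed by the RNase III enzyme Drosha and its RNA-binding partner Dgcr8, cuts out the hairpin, and helicases such as Ddx5 help it on some substrates. Xpo5 carries the hairpin to the cytoplasm, where Dicer1 trims it with the help of Tarbp2, and an Argonaute protein (Ago1 to Ago4) holds the mature strand and represses matching messenger RNAs. In mice, loss of Dicer1 from the mesenchyme of the reproductive tract makes females infertile.

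Open chromatin at these 10 genes was mapped in the whole mouse uterus on gestation day 4, around the time embryos begin to implant. The animals were untreated wild-type C57BL/6J females, 6 to 10 weeks old, and the series holds 3 FAIRE DNA samples of this single group. FAIRE (formaldehyde-assisted isolation of regulatory elements) keeps DNA that is not crosslinked to protein, which enriches DNA free of nucleosomes. A single list of 12413 peaks was deposited for the series, and a member's peaks were those overlapping its GRCm38 span plus 10 kb on each side: 19 peaks for the 10 genes. Since its columns carry no sample names, the spread between animals cannot be given. With a single group no test between groups was possible, and library depth is unknown. Each fold enrichment is the authors' value for a peak over its local background and is used only to describe and rank peaks within this list. Of 7 genes of the reproductive tract looked at as a check of the tissue, 5 had a peak within the same 10 kb limit (Hoxa10, Hoxa11, Pgr, Nr2f2 and Msx1), while Esr1 and Foxa2 had none. Of all protein-coding genes 57.6% had one, so this count cannot identify the tissue. Hoxa10 and Hoxa11 had the same highest fold (3.65) and may share a peak. A whole uterus mixes epithelium, stroma, muscle, vessels and immune cells, so fewer cells of a type with an open site and less opening per cell cannot be told apart.

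All 10 genes of the machinery had at least 1 peak by this rule, against 57.6% of 21523 protein-coding genes. The members are longer than most genes, with a median span of 42.4 kb against 17.4 kb, and a longer span has more room for a peak. Windows around the start of transcription do not depend on the span. RefSeq promoter entries gave the start and strand of 9 members (all but Ago2), and all 9 had a peak within 1 kb of a start, against 46.7% of 17274 protein-coding genes with such an entry. In 8 of the 9 the peak lay over the start itself, Tarbp2 being the exception, against 37.8% of those genes. Within 1 kb of either annotated gene end, which needs no strand, 8 of the 10 had a peak, against 44.5% of protein-coding genes. Tarbp2 and Ago3 did not, because their starts lie inside their longest annotated spans.

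Of the 19 peaks, 14 lay within 1 kb of a member's start, or of an annotated gene end in the case of Ago2. Another 4 lay at the starts of neighbouring genes, and 1 lay deep inside Ago2. The 19 peaks had a median fold enrichment of 6.06 (range 3.40 to 15.5), against 5.80 (1.58 to 23.6) over the whole list. Their median width was 444 bp against 427 bp. The medians were thus close to those of the list, while the members differed widely among themselves.

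**Figure D1:**
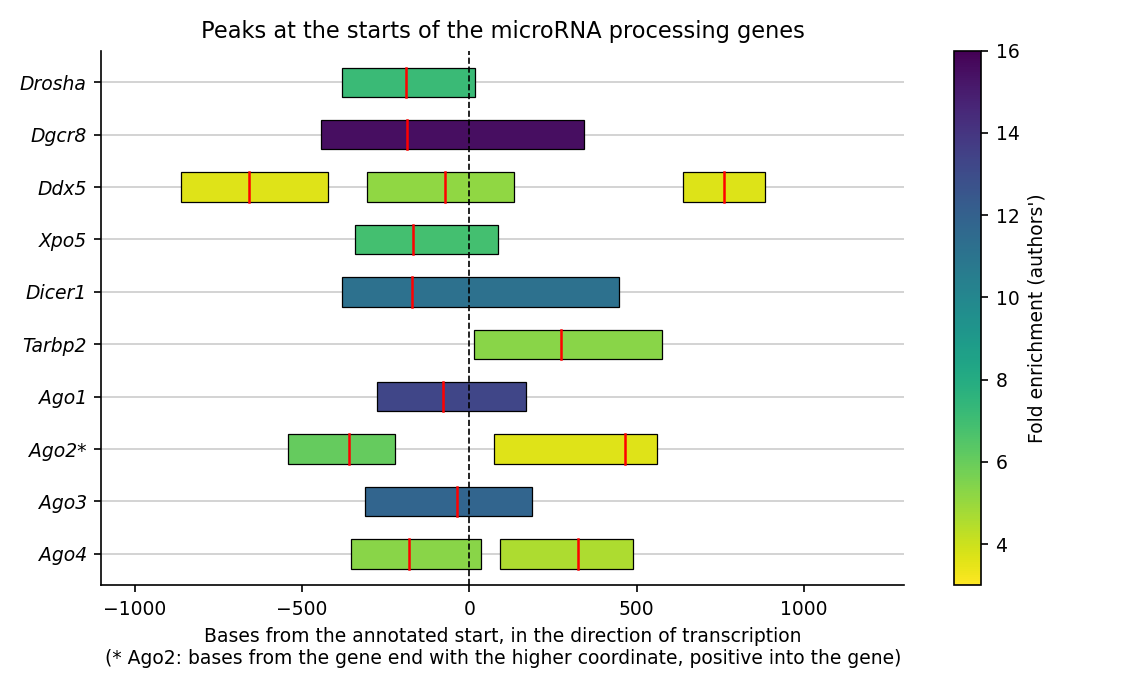
Peaks around the start of each member, drawn to scale in bases along the direction of transcription (for Ago2, from the gene end with the higher coordinate; for Ddx5, from the start furthest downstream). Boxes are peaks coloured by fold enrichment and red lines are summits; 8 genes have a peak over the start, the Tarbp2 peak begins just after it, and Ddx5, Ago2 and Ago4 each carry more than 1 peak.

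The promoter windows below run from 250 bases before the start to 50 after it, 5′ to 3′ along the gene, and are RefSeq sequence of GRCm38.p6. They are shown because a peak lies over each of them. Capitals mark matches, on either strand, to 7 motifs: the GC box GGGCGG, the CCAAT box CCAAT, the ETS core CCGGAA, the E-box CACGTG, the TATA box TATAAA, the cyclic AMP response element TGACGTCA and the NRF1 palindrome, whose letters are the long pair of capital runs in the Xpo5 window. Neighbouring GC boxes can overlap, and so can ETS cores. In Drosha an ETS core touches a CCAAT box. Dgcr8 has the strongest peak and Drosha, its partner, a much weaker one. Xpo5 and Ddx5 hold motifs that are rare among open promoters. Ago1 and Ago4 are the strongest and the weakest start peaks among the Argonaute genes with a promoter entry.
Dgcr8 promoter (chr16:18289119-18289418, minus strand): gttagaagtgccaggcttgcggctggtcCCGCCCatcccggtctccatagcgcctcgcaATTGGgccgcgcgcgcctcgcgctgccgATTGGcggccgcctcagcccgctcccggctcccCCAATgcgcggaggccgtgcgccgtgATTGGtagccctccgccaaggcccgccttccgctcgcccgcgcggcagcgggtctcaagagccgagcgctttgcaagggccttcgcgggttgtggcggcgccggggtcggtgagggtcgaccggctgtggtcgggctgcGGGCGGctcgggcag
Drosha promoter (chr15:12824565-12824864, plus strand): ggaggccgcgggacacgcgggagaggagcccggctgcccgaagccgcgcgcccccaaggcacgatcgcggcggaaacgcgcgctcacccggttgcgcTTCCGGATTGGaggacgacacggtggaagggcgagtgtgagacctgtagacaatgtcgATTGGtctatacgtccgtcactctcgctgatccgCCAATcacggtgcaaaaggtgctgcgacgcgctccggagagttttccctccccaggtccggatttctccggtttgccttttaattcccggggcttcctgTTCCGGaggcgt
Ddx5 promoter at the downstream start (chr11:106788445-106788744, minus strand): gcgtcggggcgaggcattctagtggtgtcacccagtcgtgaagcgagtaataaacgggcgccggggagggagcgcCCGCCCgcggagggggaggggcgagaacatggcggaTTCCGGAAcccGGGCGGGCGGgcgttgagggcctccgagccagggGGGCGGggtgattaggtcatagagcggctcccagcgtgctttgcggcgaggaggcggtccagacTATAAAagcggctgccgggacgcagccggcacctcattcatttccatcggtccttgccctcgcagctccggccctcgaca
Xpo5 promoter (chr17:46202561-46202860, plus strand): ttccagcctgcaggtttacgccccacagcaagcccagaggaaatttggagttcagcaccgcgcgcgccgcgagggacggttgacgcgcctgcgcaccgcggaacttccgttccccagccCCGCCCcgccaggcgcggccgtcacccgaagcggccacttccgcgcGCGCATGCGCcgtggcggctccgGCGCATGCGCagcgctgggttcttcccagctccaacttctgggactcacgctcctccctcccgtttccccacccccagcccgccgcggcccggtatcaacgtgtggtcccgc
Ago1 promoter (chr4:126468582-126468881, minus strand): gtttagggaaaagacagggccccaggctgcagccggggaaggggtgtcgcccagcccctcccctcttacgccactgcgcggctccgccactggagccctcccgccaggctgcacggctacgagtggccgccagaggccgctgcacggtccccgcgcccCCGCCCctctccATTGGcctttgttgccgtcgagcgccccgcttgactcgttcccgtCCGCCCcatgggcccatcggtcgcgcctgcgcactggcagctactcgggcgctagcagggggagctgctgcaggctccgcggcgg
Ago4 promoter (chr4:126533409-126533708, minus strand): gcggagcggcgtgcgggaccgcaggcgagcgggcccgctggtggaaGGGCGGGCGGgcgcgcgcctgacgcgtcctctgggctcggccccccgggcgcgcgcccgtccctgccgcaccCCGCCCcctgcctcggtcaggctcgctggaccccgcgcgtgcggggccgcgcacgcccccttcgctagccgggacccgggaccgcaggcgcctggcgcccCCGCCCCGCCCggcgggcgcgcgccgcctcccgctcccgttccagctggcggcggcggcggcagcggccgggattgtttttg

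The windows of the members were rich in G and C. The 9 genes gave 12 windows (Ddx5 has 3 annotated starts and Ago1 has 2), and the 2 Ago1 windows share most of their bases. Over the 12 windows, the median GC content was 72.2% (range 59.0 to 83.3). It was 65.7% over the 8079 protein-coding windows that a peak overlaps and 51.0% over the 12966 that none overlaps. CpG dinucleotides numbered 21 (Tarbp2) to 54 (Ago4) per member window, with a median of 37, against medians of 26 in windows with a peak and 5 in windows without. Base composition thus moved with the presence of a peak across all promoters, and its part in the peaks of the members was not tested.

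GC boxes were in 9 of the 12 member windows, close to the 78.0% of windows with a peak that hold one, and Drosha was the only gene of the 9 without any. CCAAT boxes were in 7 of the 12 member windows (6 genes, with the same Ago1 box in 2 overlapping windows), against 36.6% of windows with a peak. Dgcr8 had 4 of them, starting 191, 163, 130 and 104 bases before the start, and 2.09% of windows with a peak held as many. Drosha and Tarbp2 had 3 each, those of Drosha all between its start and that of 6030458C11Rik, read the other way. At least 3 were in 5.69% of windows with a peak. Xpo5 carried the NRF1 palindrome 2 times, starting 85 and 62 bases before the start. Both copies lie between the starts of Xpo5 and of Polh, read the other way, and so cannot be given to Xpo5 alone. The palindrome was in 2.49% of windows with a peak at least once, and 7 of those 8079 windows had it 2 or more times. Ddx5 had the only TATA box among the members, 30 bases before its downstream start, whereas 4.17% of windows with a peak and 12.7% of all windows held one. The ETS core occurred in 4 of the 12 member windows, those of Drosha, Ago3 and 2 starts of Ddx5, and in 30.8% of windows with a peak. The E-box occurred in 1 member window, that of the middle Ddx5 start, and in 11.1% of windows with a peak. The cyclic AMP response element was in none of the member windows and in 3.74% of windows with a peak. These are letter matches and do not show that a factor binds.

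The Microprocessor pair had start peaks of different strength. Dgcr8 had a peak of 15.5-fold over its start (chromosome 16, 18288827 to 18289611), with a pileup of 202 and a summit 185 bases before the start. It stood 16th of all 12413 peaks, both by fold enrichment and by −log10 q. Among the 8073 protein-coding genes with a start peak, 99.9% had a lower one. This is the Dgcr8 window printed above, and the peak covers all 300 of its bases. The other Dgcr8 peak within 10 kb (18248346 to 18249073, 11.7-fold) lay 4875 bp beyond the far end of the gene. It sat over the starts of Ranbp1, which encodes a partner of the transport GTPase Ran, and Trmt2a, a transfer RNA methyltransferase gene, 18 bases from the Trmt2a start and 171 from that of Ranbp1.

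Drosha, by contrast, had a single peak of 7.20-fold (chromosome 15, 12824435 to 12824831), with a pileup of 64 and a rank of 3869. Its start peak was higher than 60.7% of start peaks. The summit lay 188 bases before the Drosha start and 30 bases from the start of 6030458C11Rik, a gene read in the opposite direction whose start is 158 bases away. The peak covers 267 of the 300 bases of the window and both starts, so it cannot be given to either gene alone. No other peak lay within 84726 bp of the Drosha gene.

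Ddx5 encodes a DEAD-box helicase and was the member with the most peaks, 4 within 10 kb. Its 3 annotated starts lie close together, and a peak lay over the downstream start (chromosome 11, 106788362 to 106788800, 5.14-fold, pileup 56) and over the upstream start (106788917 to 106789357, 3.61-fold, pileup 39). These 2 peaks are separated by 116 bases, and the middle start lies between them. Another, of 3.67-fold and 246 bp wide, lay 761 bases inside the gene from the downstream start (106787610 to 106787855). All 3 were below the list's median fold of 5.80. The strongest peak, 7.68-fold, was 693 bp beyond the other end of the gene (106779164 to 106779662) and lay 106 bases from the start of Polg2, a mitochondrial DNA polymerase subunit gene. The upstream start of Ddx5 is 67 bases from that of Cep95, a centrosomal protein gene read the other way, so the upstream peak is shared as well. An annotated end of Cep95 lies under the downstream peak, 72 bases from its summit, so that peak is shared too. The same end is 907 bases from the summit of the peak inside the gene.

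Xpo5, the export receptor, had a peak of 6.86-fold over its start (chromosome 17, 46202468 to 46202897, pileup 62). Its summit was 169 bases before the Xpo5 start and 1 base from the start of Polh, the gene of DNA polymerase eta, which is read in the opposite direction 170 bases away. A peak of 5.61-fold (46247942 to 46248437) lay 4344 bp beyond the gene, over the starts of Yipf3 and of Polr1c, a subunit gene of RNA polymerases I and III, 117 and 152 bases from the summit of the peak. In all, 3 of the 9 genes (Drosha, Ddx5 and Xpo5) had a start of another protein-coding gene on the opposite strand within 1 kb, against 9.73% of protein-coding genes with a promoter entry. In Drosha and Xpo5 the summit was nearer to the neighbour's start than to the member's own.

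The cytoplasmic pair differed as well. Dicer1, the RNase III enzyme that trims hairpins, had a single broad peak of 11.2-fold over its start (chromosome 12, 104751506 to 104752332), with a pileup of 136. At 827 bp it was the widest of the 19 and wider than 93.4% of the list. Its fold was higher than 94.3% of start peaks. It stood alone, with no other peak within 214566 bp of the gene and the nearest annotated end of another protein-coding gene, Clmn, 10990 bp from the summit. Tarbp2, the RNA-binding partner of Dicer1, had a single peak of 5.31-fold (chromosome 15, 102518206 to 102518766, pileup 56), higher than 31.7% of start peaks. It began just after the annotated start, with its summit 275 bases inside the gene, and covered 36 of the 300 bases of the promoter window. Map3k12, a kinase gene read the other way, has its start 1463 bases from that summit.

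**Figure D2:**
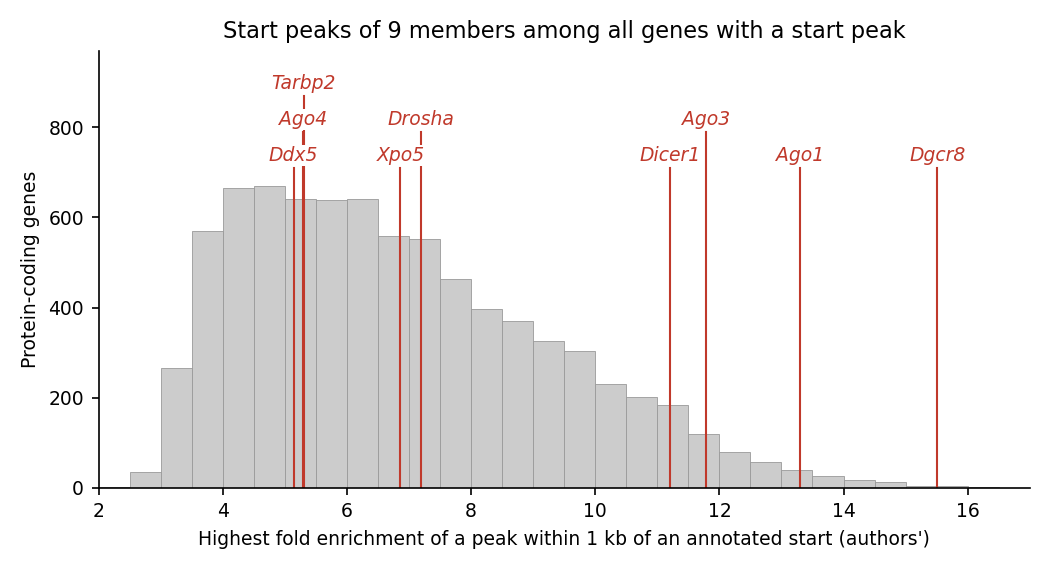
Histogram of the highest fold enrichment within 1 kb of an annotated start over the 8073 protein-coding genes with such a peak (horizontal axis, authors' fold enrichment; vertical axis, number of genes), with red lines for 9 members. Dgcr8, Ago1, Ago3 and Dicer1 lie above 11-fold and the other 5 lie between 5.14 and 7.20.

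The start peaks of the members thus fell into a high and a low set with nothing between 7.20-fold and 11.2-fold. Dgcr8 (15.5), Ago1 (13.3), Ago3 (11.8) and Dicer1 (11.2) were each higher than at least 94.3% of start peaks. Drosha (7.20), Xpo5 (6.86), Tarbp2 (5.31), Ago4 (5.29) and Ddx5 (5.14) were higher than 60.7% (Drosha) down to 29.2% (Ddx5) of them. The median over the 9 genes was 7.20, against 6.43 over all genes with a start peak. Each set holds genes of the nuclear and of the cytoplasmic steps.

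The 4 Argonaute genes lie at different places. Ago3, Ago1 and Ago4 follow each other within 207 kb on chromosome 4, all read from the minus strand, and Ago2 is alone on chromosome 15. Ago1 had the strongest peak of the family, 13.3-fold with a pileup of 139 (126468463 to 126468906), 114th of the whole list and higher than 99.0% of start peaks. Both annotated Ago1 starts lie under it. Ago3 had 11.8-fold with a pileup of 131 (126429355 to 126429854), its summit 37 bases before the start and its fold higher than 96.4% of start peaks. This peak is also within 10 kb of Ago1, 5158 bp beyond that gene's end, and is the 1 peak of the 19 that counts for 2 members.

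Ago4, the third gene of the cluster, stood apart from its neighbours. It had 2 weaker peaks separated by 58 bases: 5.29-fold with a pileup of 50 over the start (126533424 to 126533813) and 4.61-fold with a pileup of 44 just inside the gene (126532969 to 126533365). The first summit was 181 bases before the start and the second 324 bases after it. Both lay below the median of the list, although the Ago4 window, printed above, is the richest of the 12 in G, C and CpG. The 207 kb of the cluster held no peak outside these starts. A further peak of 8.37-fold (126321318 to 126321854) lay 5140 bp beyond Ago3, at the start of Adprhl2, an ADP-ribose hydrolase gene.

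**Figure D3:**
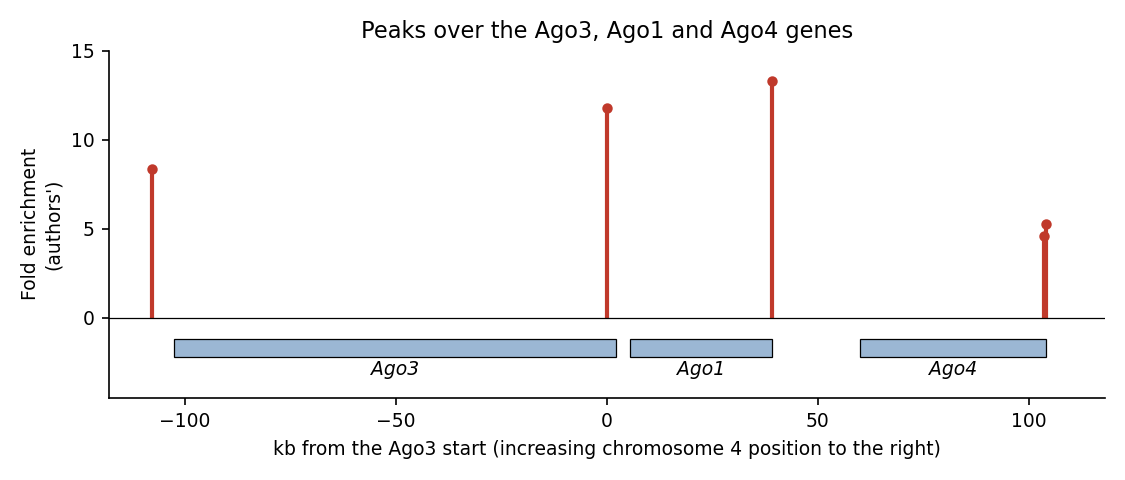
Peaks over the Ago3, Ago1 and Ago4 genes on chromosome 4, with the summit's distance from the Ago3 start in kb on the horizontal axis and the authors' fold enrichment on the vertical axis. Blue boxes are the gene spans, read from right to left; the start peaks of Ago3 (11.8) and Ago1 (13.3) stand above the pair at Ago4 (5.29 and 4.61), and the peak at the far left (8.37) is at Adprhl2.

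Ago2, the family member that can itself cut a target messenger RNA, had 3 peaks, none of them strong. A pair separated by 295 bases flanked the gene end with the higher coordinate: 6.06-fold with a pileup of 74 outside the gene (chromosome 15, 73185170 to 73185490) and 3.62-fold with a pileup of 45 inside it (73184386 to 73184874). The summits were 360 and 467 bases from that end. The third peak, 3.40-fold with a pileup of 27, lay inside the gene 30216 bp from its nearest end (73154635 to 73154927), and was the weakest of the 19. It was the only one of them with neither a member's start or end nor an annotated end of another protein-coding gene within 1 kb of its summit.

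**Figure D4:**
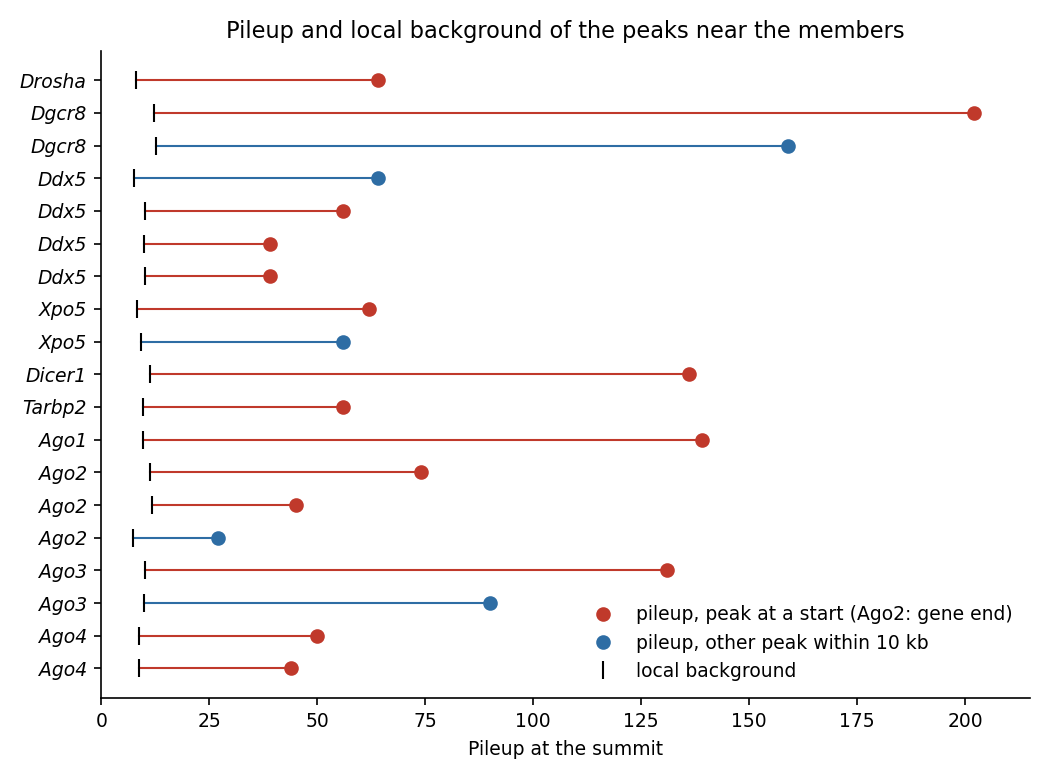
Pileup at the summit (dots; red for peaks at a member's start or, for Ago2, a gene end, blue for other peaks within 10 kb) and local background (black ticks) for the 19 peaks, a row each. The background stays between 7.23 and 12.7 while the pileup runs from 27 to 202, with Dgcr8 highest and the peak inside Ago2 lowest.

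The members differed far more in pileup than in background. The local background computed for the 19 peaks ran from 7.23 to 12.7, with a median of 9.87, against 8.59 over the list. The pileup ran from 27 to 202, with a median of 62 against 55. The strong start peaks of Dgcr8, Ago1, Dicer1 and Ago3 had backgrounds of 12.1, 9.53, 11.2 and 10.2. The weaker start peaks of Drosha, Xpo5, Tarbp2, Ago4 and Ddx5 (downstream start) had 8.03, 8.18, 9.74, 8.64 and 10.1. The ranges overlap at Tarbp2 and Ddx5, while Drosha, Xpo5 and Ago4 lay below all of the strong ones.

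Summits of the members tended to lie upstream of the start. In 7 of the 9 genes the summit nearest to a start lay before it, and in 5 of them (Drosha, Dgcr8, Ago4, Dicer1 and Xpo5) by 169 to 188 bases. Over 7999 protein-coding genes with a summit within 1 kb of a start, 43.6% had it before the start and the median position was 17 bases after it. The summit positions of Drosha and Xpo5 are shared with their divergent neighbours. At the start peaks of Dgcr8, Dicer1 and Ago4 no annotated end of another protein-coding gene lay within 1 kb of the summit.

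Most members had more than 1 peak: 7 of the 10 had 2 or more within 10 kb, against 19.9% of protein-coding genes. The longer spans of the members (median 42.4 kb against 17.4 kb) give more room for peaks here too. A share over genes of like span was not computed. Dgcr8, Xpo5, Ago1 and Ago3 reached 2 only through a peak at a neighbour's start, whereas Ago2, Ago4 and Ddx5 had several in the gene or at its own start or end. The 3 at Ddx5 all had an annotated end of Cep95 within 1 kb of the summit. The 10 kb limit split few cases. The member peaks farthest out lay 5158, 5140, 4875 and 4344 bp from the gene, and the first beyond the limit were a 4.46-fold peak 10192 bp from Xpo5 and a 9.88-fold peak 10674 bp from Ago2.

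Some members also host microRNA hairpins: Dgcr8 has 2 (Mir1306 and the hairpin of miR-3618), Ddx5 has Mir3064 and Xpo5 has Mir693. In mammals the Dgcr8 hairpins are cut by the Microprocessor itself, which lowers Dgcr8 messenger RNA. None of the 4 hairpins lay under a peak, and only 4.28% of 1005 annotated microRNA hairpins did, so this is the usual case. The Dgcr8 hairpins were 4190 and 4510 bp from the start peak, Mir3064 was 3031 bp from the peak at Polg2, and Mir693 was 16323 bp from its nearest peak. The mature sequences from the Dgcr8 hairpins (chr16, minus strand, RefSeq, GRCm38.p6) are shown with the seed, bases 2 to 8, in capitals. All 4 seeds differ.
miR-1306-5p: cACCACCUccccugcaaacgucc
miR-1306-3p: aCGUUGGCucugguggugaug
miR-3618-5p: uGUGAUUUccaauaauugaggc
miR-3618-3p: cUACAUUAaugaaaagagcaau

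The other genes of the pathway were looked at in 6 lists. Each fold given is the highest within 10 kb of the gene, wherever that peak lies. Of the genes named below with a peak, Tnrc6a, Cnot7, Cnot8, Dis3l2 and Tdrd1 had none within 1 kb of an annotated gene end. Tnrc6a, Cnot8 and Dis3l2 did have one within 1 kb of an annotated start. Tdrd1 had none there either, and Cnot7 has no promoter entry. Partners of the Microprocessor had a peak by the 10 kb rule in 12 of 12, against 57.6% of protein-coding genes, led by Ncbp2 (10.3-fold), a cap-binding subunit, Srsf3 (9.58), a splicing factor that promotes Drosha cutting, and Ncbp1 (9.52). Genes of export and Argonaute loading had one in 9 of 10, led by the chaperones Hsp90aa1 (12.1) and Fkbp4 (11.4) and by Ran (11.2), the GTPase that works with Xpo5. Ipo8, an importin, had none. Effectors of the silencing complex had one in 10 of 10, with Tnrc6a (10.4), a scaffold that binds Argonaute, Limd1 (9.94) and Fxr1 (9.52), an RNA-binding protein gene, in front. Genes of deadenylation and decay had one in 14 of 16, led by the deadenylases Cnot7 (10.2) and Cnot8 (9.65) and the decapping enzyme Dcp2 (9.40), with none near Edc3 or Xrn1. Genes of microRNA turnover and tailing had one in 7 of 7, led by the uridylyltransferase Tut7 (12.9), the exonuclease Dis3l2 (9.81) and Tent2 (8.04).

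The germline small RNA pathway, whose PIWI proteins are relatives of the Argonautes used mainly in germ cells, stood at 9 of 14. Tdrd5 (7.12-fold), Tdrd1 (7.10) and Tdrkh (6.87) led it, and Piwil1 and Piwil4 had no peak. Within 1 kb of a start, 4 of the 12 germline genes with a promoter entry had a peak, compared with 9 of 9 microRNA processing genes and 46.7% of protein-coding genes. The other lists had 8 of 10 (Microprocessor partners), 6 of 7 (export and loading), 7 of 8 (effectors), 9 of 13 (decay) and 5 of 7 (turnover). Within 1 kb of an annotated gene end the counts were 11 of 12, 9 of 10, 7 of 10, 8 of 16 and 4 of 7 in that order. The germline list had 4 of 14 there, against 44.5% of protein-coding genes. The median of the highest fold per gene, over genes with a peak, was 7.44 for the machinery and 5.50 for the germline list, against 6.61 for all protein-coding genes with one. Export and loading genes had the highest median of the lists, at 9.97. These are counts in a single peak list, with no test, and any difference between lists was not tested.

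**Figure D5:**
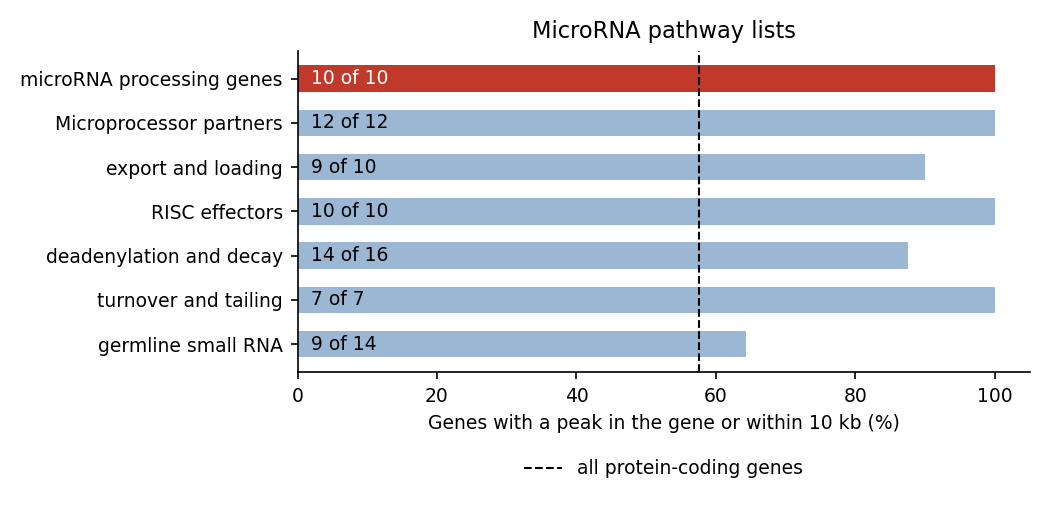
Share of genes whose span, extended by 10 kb, overlaps a peak (horizontal axis, %) for the microRNA processing genes (red) and 6 other lists (blue), with the count in each bar; the dashed line marks all protein-coding genes (57.6%). The lists of the microRNA pathway stand between 87.5% and 100% and the germline list at 64.3%.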

How the data were processed

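FAIRE DNA of 3 samples of whole uterus was sequenced. FastQC, MACS2, HOMER and Bowtie2 appear in the submitters' processing notes without versions, as does the build GRCm38.p5. Each peak of the deposited table has a pileup (a coverage signal), a fold enrichment (a ratio) and the −log10 of a q-value, per the file headers. How replicates were pooled, the threshold and any input control were not given in the sources used here. The growth protocol speaks of 3 mice and the design text of 4.

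Genes and starts came from RefSeq tables of GRCm38.p6, on chromosomes 1 to 19 and X, without genes annotated to begin below 3 Mb. An overlap was at least 1 base, and a peak counted for every gene it lay near. Local background was computed as (pileup + 1) / fold − 1. The base composition and motifs of 21045 protein-coding promoter windows were counted on both strands. Python 3.11.15, pandas 2.3.3 and numpy 2.4.6 were used, and the overlap count was tested on simulated data.

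The members, lists, motifs and windows were chosen with earlier results of these data known. All members were described with all their peaks. Of each other list, up to 3 genes with the highest fold and up to 2 without a peak were named. Promoter starts, the tissue check and repeated motifs were added after the data were seen.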

Additional observations from a re-analysis of the deposited data

How the results depend on the processing

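All 10 members kept a peak with no flank, with 5 kb and with 50 kb on either side, and with 50% of each peak required inside. The count was 8 among the 6206 peaks of highest fold and also 8 in the 6206 of highest −log10 q, and 7 when a peak was given only to the protein-coding gene with the nearest end. Protein-coding genes with a peak numbered 48.8% with no flank, 54.2% with 5 kb and 70.8% with 50 kb. They were 36.2% among the 6206 by fold and 35.8% among the 6206 by −log10 q. Their share was not computed for the nearest-end rule or for 50% of the peak inside, so those counts have no background beside them. The count of 19 peaks depended on the flank, with 14 for no flank, 18 for 5 kb and 28 for 50 kb. It fell to 10 in either shortened list and to 10 with the nearest gene only. With no flank the highest fold was 5.14 for Ddx5 and 3.62 for Ago2. With 50 kb it was 8.88 for Tarbp2, 9.88 for Ago2 and 13.3 for Ago3 and Ago4, which then reach the Ago1 peak. Among the 6206 by fold, peaks lay near 6 effector genes, 8 decay genes and 4 germline genes, and with no flank near 5 germline genes. Fewer peaks and shorter windows lower these counts by construction. All 9 members kept a start peak within 500 and 200 bases, against 45.6% and 43.6% of protein-coding genes, and 6 did among the 6206 by fold, against 28.1%, alternatives chosen after seeing the data. No mouse could be left out in turn because the list names no sample, and with a single group no paired analysis was possible. Depth is unknown.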

Other observations

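The products of the machinery were looked at in the same list. Of 1005 annotated microRNA hairpins on these chromosomes, 43 (4.28%) lay under a peak and 86 (8.56%) had a peak within 1 kb. The strongest such peak was at Mir5133 (11.4-fold), 53 bases from the start of the protein-coding gene Glce. Some hairpins lay farther from such starts. Mir203, known for its role in epithelial differentiation, lay under a peak of 7.76-fold 15290 bases from the nearest protein-coding start in the promoter table. Mirlet7i, of the let-7 family, lay under one of 4.14-fold, 211337 bases from the nearest such start, and Mir212 under one of 3.33-fold. These hairpins were chosen after their values were seen, and a peak over a hairpin does not show that its microRNA is made.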
